A study of Mus musculus with 4 samples.

Results

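The genes described here encode the transferases that join glutathione, sulfate or glucuronic acid to drugs, food compounds, hormones and lipids. They were chosen by symbol: the Gsta, Gstm, Gstp, Gstt, Gstk, Gsto and Gstz genes and Mgst1 to Mgst3 (GST class), the Sult genes (SULT class) and the Ugt1a, Ugt2 and Ugt3 genes (UGT class), with pseudogene symbols left out. The rule found 67 of the 55203 genes listed, 26 in the GST class, 20 in the SULT class and 21 in the UGT class, and 3 pseudogene symbols were left out. Their values played no part in the choice.

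Conjugation makes a compound more water soluble and marks it for export from the cell. Glutathione transferases attach the tripeptide glutathione to electrophiles, sulfotransferases (SULT) move a sulfate from the donor PAPS to hydroxyl groups, and UDP-glucuronosyltransferases (UGT) move glucuronic acid from its UDP-bound form. In the gut these enzymes act mainly in the absorptive epithelium, and bacterial enzymes in the lumen can release the compound again.

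The series was made to set bulk RNA levels beside in situ imaging of transcripts (MERFISH). RNA came from intestine of wild-type (WT) C57BL/6NTac male mice, 8 to 12 weeks old and specific-pathogen-free (SPF). There were 4 libraries. The labels of 2 give ribonucleoside vanadyl complex (RVC), a ribonuclease inhibitor, at 4 mM, and the labels of the other 2 give fresh frozen. One protocol text, with an RVC rinse, stands with all 4, and nothing beyond the label says how the fresh-frozen tissue was treated. Each library has a batch number of its own, and its effect cannot be told apart from that of the group. Nothing in the labels says whether libraries came from separate animals, and p-values below measure only the spread between these libraries.

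The labels name the tissue as ileum, and the protocol names distal colon. All 6 colon genes listed for this check had a mean of at least 1 FPKM (fragments divided by transcript length and by the mapped fragments of the library). Car1 was at 1576 to 1781 FPKM, Aqp8 at 642 to 1046 and Slc37a2 at 159 to 247. The posterior genes Hoxb13, Hoxa13 and Hoxd13 were at 98.5 to 133, 20.5 to 22.2 and 5.68 to 39.5 FPKM. Of 8 ileum genes, Fgf15, Apoa4, Defa17 and Defa22 were listed at 0 in every library and Lct stayed under 1 FPKM. The other 3 had a mean of at least 1 FPKM, with Mep1a at 119 to 184 FPKM, Fabp6 at 2.70 to 3.96 and Slc10a2 at 2.33 to 3.07. Summed FPKM was 847754 to 962928 per library and the relative depth 72.6% to 100% of the deepest, with 14247 to 14573 genes at 1 FPKM or more. The conjugation genes held 0.199% to 0.251% of the summed FPKM.

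Of the 67 genes, 54 were above 0 in at least 1 library and 13 were listed at 0 in all 4. A mean of 1 FPKM or more was reached by 38 genes, 10 FPKM by 25 and 100 FPKM by 7. The classes differed in how many of their genes were detected at that level. In the GST class 24 of 26 reached 1 FPKM, against 6 of 20 in the SULT class and 8 of 21 in the UGT class. The 10 most abundant genes held 78.8% ± 0.782 (SD, n = 4) of the summed FPKM of all 67.

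**Figure D1:**
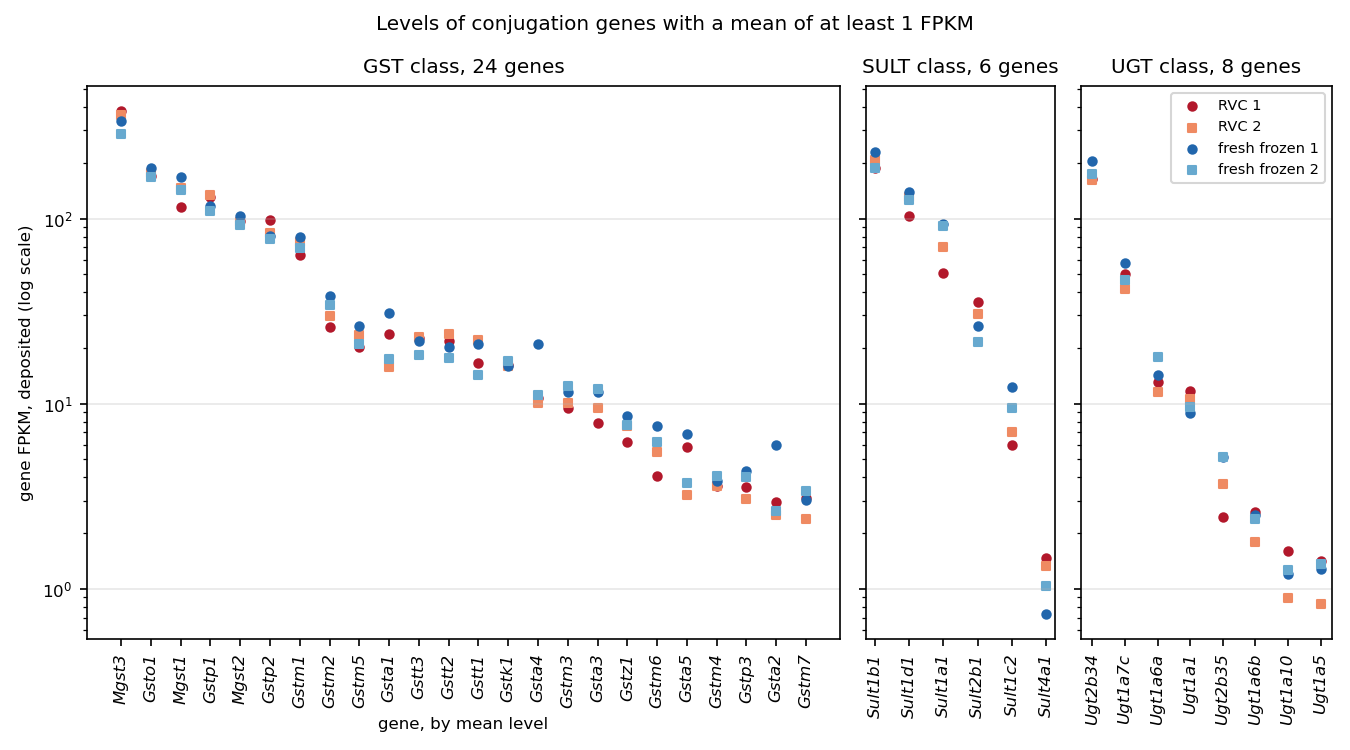
Gene FPKM (log axis) of the 38 conjugation genes with a mean of at least 1 FPKM, in 3 panels by class and ordered by mean, with 1 point for each of the 4 libraries. Mgst3 leads the GST panel at 285 to 380.4 FPKM, Sult1b1 the SULT panel at 187 to 229 and Ugt2b34 the UGT panel at 162 to 206.

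Summed over genes, the GST class was the most abundant per transcript length. Values are given throughout in the order RVC 1, RVC 2, fresh frozen 1, fresh frozen 2. The GST sum was 1262, 1285, 1331 and 1153 FPKM, a mean of 1257 ± 75.4 (SD, n = 4). The SULT class summed to 385, 447, 501 and 438, a mean of 443 ± 47.6. The UGT class summed to 249, 236, 299 and 260.4, a mean of 261 ± 27.3. The order GST, SULT, UGT held in each of the 4 libraries. GST made up 64.1% ± 2.11 of the 3 classes, SULT 22.6% ± 1.55 and UGT 13.3% ± 0.988 (SD, n = 4). The GST sum was 2.86 ± 0.298 times the SULT sum and 4.85 ± 0.500 times the UGT sum. The order of SULT and UGT depends on length, since UGT transcripts are longer. With FPKM multiplied by transcript length, which follows the share of fragments, GST held 47.3%, SULT 24.2% and UGT 28.5%.

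**Figure D2:**
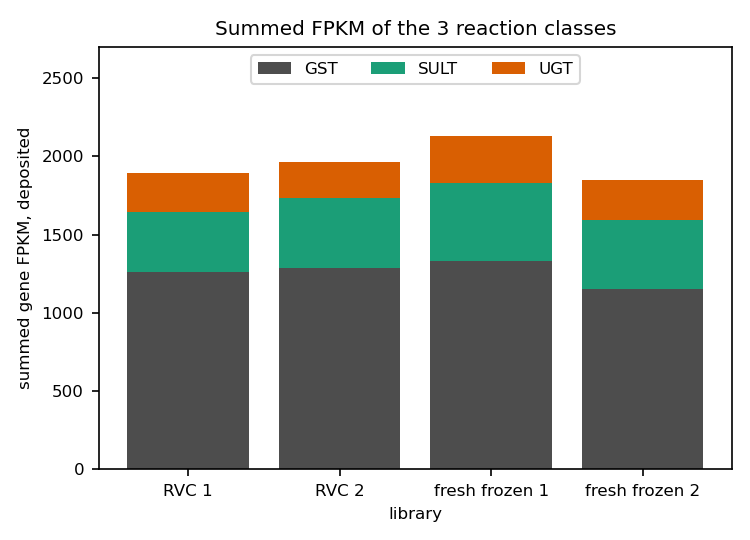
Stacked bars of summed gene FPKM of the GST, SULT and UGT classes in each of the 4 libraries. The total lies between 1851 and 2131 and GST is the tallest part of every bar.

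Several of these genes are near copies of each other or share exons, which bears on their separate levels. In their leading transcripts, the 9 Ugt1a genes of chromosome 1 splice from an upstream exon to the same first shared exon. From there on, the exons sum to 2316 nt in each gene but Ugt1a10, whose leading transcript has 372 nt. The shared stretches are the same RNA whichever gene made it. The first shared exon occupies chr1:88142766-88142897 on the plus strand of GRCm39. For 5 of the genes, the last 24 bases of the upstream exon (lower case) and the first 24 bases of the first shared exon (capitals) are shown. Only the lower-case part differs between these stretches.
Ugt1a7c: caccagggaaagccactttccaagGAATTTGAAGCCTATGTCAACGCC
Ugt1a6b: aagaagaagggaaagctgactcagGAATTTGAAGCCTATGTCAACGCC
Ugt1a6a: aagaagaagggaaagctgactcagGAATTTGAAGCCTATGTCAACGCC
Ugt1a5: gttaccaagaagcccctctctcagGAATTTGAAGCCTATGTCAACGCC
Ugt1a1: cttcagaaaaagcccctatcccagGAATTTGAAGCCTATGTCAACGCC
Over the 9 genes there were 7 distinct lower-case ends, with Ugt1a6a and Ugt1a6b identical to each other, and Ugt1a5 identical to Ugt1a2. Of the 150-base windows of the leading transcript, 97.5% in Ugt1a6a and 69.6% in Ugt1a7c also occurred in another gene. The Ugt1a6a windows occurred in annotated Ugt1a7c transcripts (97.5% of them), including windows ahead of the shared exons. The read length was 150 bases, so the split of Ugt1a reads over the 9 genes is uncertain and their sum is the safer level.

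Gstp1 and Gstp2, neighbours on chromosome 19, differed at 12 of 630 coding bases (98.1% identical). The first 60 coding bases hold 6 of these differences, given in capitals, and are shown because such bases are what separates the levels of these genes.
Gstp1: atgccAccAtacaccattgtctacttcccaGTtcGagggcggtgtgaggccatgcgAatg
Gstp2: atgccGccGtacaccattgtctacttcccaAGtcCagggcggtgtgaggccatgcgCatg
Counted from the first coding base, with the Gstp1 base first, these are A6G, A9G, G31A, T32G, G35C and A57C. Of the windows of 150 bases, 37.2% in Gstp1 and 48.6% in Gstp2 occurred in another gene. Gsta1, Gsta2 and Gsta5 of chromosome 9 were 97.4% to 98.5% identical over their coding bases, so their separate levels are uncertain in the same way. No window of Mgst1 to Mgst3, Gsto1, Sult1b1, Sult1d1, Sult1a1 or Ugt2b34 occurred in another annotated gene.

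Within the GST class the membrane-bound genes were nearly as abundant as all soluble ones together. Mgst1, Mgst2 and Mgst3 summed to 593, 604, 607 and 520.4 FPKM, which was 29.6% ± 1.58 of the 3 classes (SD, n = 4). The 23 soluble genes summed to 669, 681, 724 and 632 FPKM. The microsomal enzymes (MAPEG family) sit in the endoplasmic reticulum and outer mitochondrial membrane and are unrelated in sequence to the soluble transferases.

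Mgst3 (chr1:167199535-167221410, minus strand), a glutathione transferase and peroxidase for lipid hydroperoxides, was the most abundant of the 67 genes, at 380.4, 362, 335 and 285 FPKM. Its 4 values lay above every value of the next gene. Mgst1 (chr6:138117314-138133753, plus strand), which also has peroxidase activity, was at 116, 146, 168 and 143 FPKM. Mgst2, which can make leukotriene C4, was at 96.9, 95.6, 104 and 92.3 FPKM. Mgst1 varied most of the 3 relative to its level, with its lowest value in RVC 1.

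Gsto1 (chr19:47843409-47853229, plus strand) led the soluble enzymes at 169.9, 177, 187 and 167 FPKM. It is an omega-class enzyme with a cysteine in its active site that reduces dehydroascorbate. Its neighbour Gsto2 stayed under 1 FPKM in every library (0.351 to 0.807).

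The pi-class genes followed. Gstp1 (chr19:4085407-4087985, minus strand) was at 131, 134, 118 and 110.0 FPKM. Gstp2 (chr19:4090285-4096023, minus strand) was at 98.8, 83.4, 80.9 and 77.9 FPKM. Gstp1 was above Gstp2 in each library, by 1.45 ± 0.119 times (SD, n = 4). As the reads of these genes are hard to part, their sum is the firmer value, at 229, 217, 198 and 188 FPKM. The third pi gene, Gstp3, was at 3.04 to 4.32 FPKM.

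All 7 mu-class genes of chromosome 3 reached 1 FPKM, with a sum of 130.1, 149.8, 170.2 and 151 FPKM. Gstm1, the main mu enzyme of mouse tissues for epoxides and other electrophiles, was at 63.5, 74.9, 79.9 and 69.5 FPKM and held 48.0% ± 1.77 of that sum. Gstm2 was at 26.0, 29.9, 38.1 and 34.0 FPKM, and Gstm5 at 20.4, 23.4, 26.2 and 21.1. Gstm3 was at 9.47, 10.1, 11.6 and 12.5 FPKM, and Gstm6 at 4.06, 5.49, 7.59 and 6.22. Gstm4 and Gstm7 lay between 2.37 and 4.08 FPKM. Gstm1 did not overlap its lower neighbour in the class, Gstm2, whereas Gstm2, Gstm5, Gsta1 and the theta genes formed a run in which each gene's range overlapped the next.

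The theta-class genes, a soluble subfamily with a serine in the active site, lie side by side on chromosome 10. Gstt3 was at 22.8, 23.1, 21.8 and 18.4 FPKM, Gstt2 at 21.8, 23.7, 20.4 and 17.7, and Gstt1 at 16.7, 22.1, 21.1 and 14.3. The 3 ranges overlapped, with fresh frozen 2 lowest for each gene. The remaining gene of that cluster, Gstt4, was listed at 0 in all 4 libraries. Gstk1, the kappa-class enzyme of mitochondria and peroxisomes, was the steadiest of the genes above 10 FPKM, at 16.12, 16.01, 16.07 and 16.97 FPKM (coefficient of variation 2.79%). Gstz1, which isomerises maleylacetoacetate in tyrosine breakdown, was at 6.24 to 8.57 FPKM.

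The alpha class was low in this tissue and differed between libraries of one group. Gsta1 (chr9:78137938-78149966, plus strand) was at 23.9, 15.7, 30.7 and 17.3 FPKM. Gsta4, which prefers 4-hydroxynonenal, a product of lipid peroxidation, was at 10.8, 10.1, 20.9 and 11.1 FPKM. Fresh frozen 1 was the highest library for both, and for Gsta4 it was the only one that stood off from the other 3. Gsta5 (3.22 to 6.82 FPKM) and Gsta2 (2.52 to 5.99 FPKM) were also highest in fresh frozen 1. The 4 Gsta genes of chromosome 9 summed to 43.5, 31.5, 64.4 and 34.8 FPKM, so the libraries numbered 1 of both groups lay above those numbered 2. Gm3776, a gene among them that a later annotation names Gsta13 and the name rule misses, was at 17.5, 11.2, 23.8 and 12.5 FPKM and 61.6% of the Gsta1 windows occurred in it. Gsta3, on chromosome 1 and with no shared window, was at 7.83, 9.54, 11.5 and 12.0 FPKM.

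The SULT class rested on few genes. Sult1b1 (chr5:87661198-87686054, minus strand), which sulfates phenols and thyroid hormones, was at 187, 207, 229 and 188 FPKM and held 45.9% ± 2.34 of the class (SD, n = 4). Sult1d1 (chr5:87702504-87716886, minus strand), a catecholamine sulfotransferase, was at 104, 131, 139 and 126 FPKM. Sult1b1 was 1.63 ± 0.133 times Sult1d1, and the ranges of the pair did not overlap.

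Sult1a1 (chr7:126272037-126275604, minus strand), the phenol sulfotransferase that acts on many drugs, was at 50.6, 70.2, 93.5 and 91.3 FPKM. Sult2b1 (chr7:45379407-45434093, minus strand), which sulfates cholesterol and pregnenolone, was at 35.6, 30.3, 26.4 and 21.6 FPKM. Sult1c2 (chr17:54136665-54153367, minus strand) was at 5.99, 7.03, 12.3 and 9.44 FPKM. For Sult1a1 and Sult1c2 both RVC libraries were below both fresh-frozen libraries, and for Sult2b1 both were above. The ratio of Sult1a1 to Sult2b1 was 1.42, 2.31, 3.55 and 4.23. Its lack of overlap between the groups follows from the opposite differences of the 2 genes and adds nothing to them.

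Among the other SULT genes, Sult4a1, a form known from brain, was at 0.733 to 1.48 FPKM. The 8 Sult2a genes of chromosome 7, which sulfate hydroxysteroids and bile acids and are known from liver, summed to 0.475, 0.415, 0.143 and 0.284 FPKM, all of it from Sult2a8. Sult1e1, the estrogen sulfotransferase, was at 0, 0, 0.226 and 0.0549 FPKM, although it lies next to Sult1d1. In all, 9 of the 20 SULT genes were listed at 0 in each library.

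The UGT class was carried by Ugt2b34 (chr5:87037626-87054796, minus strand), a member of the family that glucuronidates steroids and other lipophilic compounds, at 163, 162, 206 and 173 FPKM. It held 67.4% ± 1.69 of the class and 97.3% ± 0.576 of the Ugt2 genes (SD, n = 4). Ugt2b35 was at 2.44, 3.71, 5.18 and 5.13 FPKM, and every other Ugt2 gene stayed under 1 FPKM. Both Ugt3 genes were listed at 0.

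The Ugt1a genes summed to 82.8, 68.6, 87.5 and 81.0 FPKM, a mean of 79.97 ± 8.10 (SD, n = 4). Within that sum Ugt1a7c was at 50.3, 41.7, 57.4 and 46.8 FPKM, or 61.2% ± 3.21. Ugt1a6a, a form for planar phenols and serotonin, was at 13.0, 11.5, 14.4 and 17.8 FPKM. Ugt1a1, the bilirubin form, was at 11.8, 10.7, 8.86 and 9.55 FPKM. The ranges of Ugt1a6a and Ugt1a1 overlapped, while Ugt1a7c lay above both. Nearly all Ugt1a6a windows are also annotated in Ugt1a7c, so the order of that pair depends on how reads were divided. Ugt1a6b, Ugt1a10 and Ugt1a5 had means of 1.22 to 2.32 FPKM, and Ugt1a8, Ugt1a2 and Ugt1a9 stayed at means under 1 FPKM.

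A shared position was common: 56 of the 67 genes lay in 11 clusters (members within 1000000 bases of each other) and 11 stood alone. One cluster holds genes of 2 classes, the interval chr5:87037626-87739453, with 10 Ugt2 and 3 Sult1 genes in 701828 bases. Its high levels lay near its ends. Ugt2b34 is at one end, Sult1b1 and Sult1d1 are near the other, and these 3 were the only ones of the 13 at 10 FPKM or more. Of the genes between them only Ugt2b35 passed 1 FPKM. The whole cluster summed to 457, 505, 580 and 493 FPKM, and the single other protein-coding gene annotated in it had a mean under 1 FPKM.

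**Figure D3:**
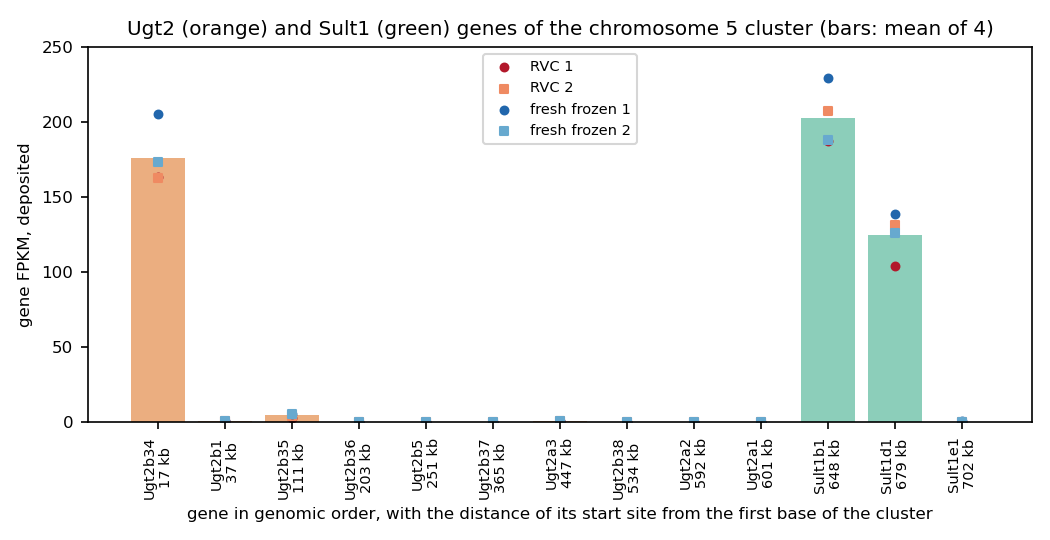
Gene FPKM of the 13 members of the chromosome 5 cluster in genomic order, with bars for the mean of 4 libraries and 1 point for each library. Ugt2b34, Sult1b1 and Sult1d1 reach 104 FPKM or more in every library and the 10 others stay under 6.

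The window from 250 bases before to 50 bases after the start of the leading transcript (GRCm39, both strands) was searched for the cores of 4 regulators linked to these genes or to the intestine. The core of HNF1, a hepatocyte nuclear factor known to bind near the starts of Ugt1a genes, was written GTTAAT. It was present in 8 of the 38 tested genes, namely 1 of 24 GST, 3 of 6 SULT and 4 of 8 UGT genes, and in 5.26% of the windows of 13620 other tested genes. The most abundant UGT and SULT genes, Ugt2b34, Ugt1a7c and Sult1b1, had no match. The 48 bases around the match (capitals, 5′ to 3′ on the strand of the gene) are shown for 4 UGT and SULT genes that had one.
Ugt1a1: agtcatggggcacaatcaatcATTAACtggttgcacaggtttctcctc
Ugt1a6a: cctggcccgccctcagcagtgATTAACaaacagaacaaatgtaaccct
Sult1d1: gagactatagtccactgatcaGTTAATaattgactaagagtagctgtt
Sult1a1: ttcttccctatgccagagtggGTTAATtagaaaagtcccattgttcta
In order, these lie at chr1:88139619-88139666 (plus strand), chr1:88062460-88062507 (plus), chr5:87716918-87716965 (minus) and chr7:126275796-126275843 (minus). The match begins 41, 50, 58 and 218 bases before the start. In the other genes it begins 153 bases before in Gsta3, 140 in Sult1c2, 50 in Ugt1a6b, and 170 and 141 in Ugt1a10, so the distances of the classes overlap. In the UGT pair shown it reads as the reverse complement. The 48 bases of Ugt1a6b are identical to those of Ugt1a6a, so these are not independent matches. The antioxidant response element of NRF2 (TGACNNNGC) was found in 3 of 38 tested genes, Gstm5, Gsta3 and Gstz1, and in 13.9% of other windows. The xenobiotic response element of the aryl hydrocarbon receptor (GCGTG) was found in 13 of 38 and in 45.1% of other windows. The CDX2 core (TTTATG) was found in 5 of 38 and in 8.32%. The letters of the 4 cores do not contain each other. A match describes the sequence only, and binding was not measured.

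For 17 of 28 genes described by library, 1 transcript held at least 90% of the gene sum in every library. Cufflinks gave leading transcripts of 10 FPKM or more 95% confidence bounds of ± 2.08% to ± 14.3%, with a median of ± 7.37%. Sult1d1 was split in a similar ratio in each library, with a 552-nt transcript (ENSMUST00000166996) at 24.6%, 25.5%, 25.6% and 25.4% of the gene sum. In Gsto1 a 950-nt transcript (ENSMUST00000236902) took 4.10%, 10.2%, 17.5% and 16.3%. In Mgst1 the leading transcript took only 41.9% to 48.1%, and a 742-nt transcript (ENSMUST00000140932) took 17.4%, 17.2%, 29.4% and 25.7%. These shares were lower in both RVC libraries for Gsto1 and Mgst1. In Gstp2 a 429-nt transcript (ENSMUST00000237565) went the other way, at 19.3%, 10.96%, 3.15% and 6.98%. Gstt2 was spread over 8 transcripts, of which the leading one took 25.1% to 44.7%. The bounds of the minor transcripts were wider than those of leading ones. They were ± 13.9% to ± 17.3% for the 552-nt Sult1d1 transcript and ± 10.7% to ± 22.7% for the 950-nt Gsto1 transcript. For the 742-nt Mgst1 transcript they were ± 10.5% to ± 15.6%, and for the 429-nt Gstp2 transcript ± 23.6% to ± 67.8%. A 739-nt transcript of Gstt2 had ± 27.5% to ± 48.2%.

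As levels, the 742-nt Mgst1 transcript was at 20.1, 25.2, 49.3 and 36.9 FPKM, without overlap between the groups. Its log2 difference (RVC minus fresh frozen) was −0.89 in limma, with an adjusted p of 0.232. That was the lowest adjusted p among 70 transcripts of the 67 genes that were tested. None of the 70 passed the threshold of 0.05 (0.00414% of all transcripts tested passed), and 15 had an unadjusted p under 0.05, or 21.4% against 15.5% of all transcripts.

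**Figure D4:**
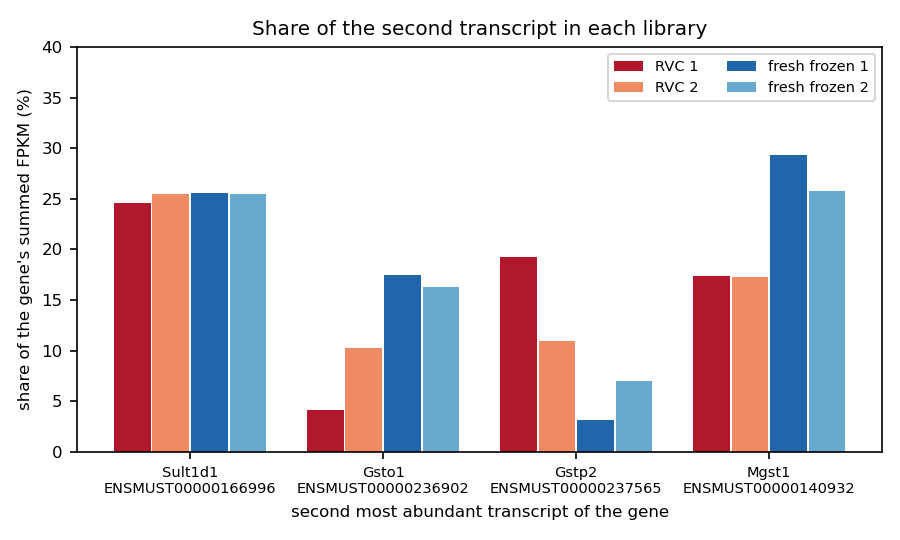
Share of the gene's summed FPKM, in percent, held by its second most abundant transcript in Sult1d1, Gsto1, Gstp2 and Mgst1, with 1 bar for each library. The Sult1d1 bars are level at 24.6% to 25.6%, while those of Gsto1 run from 4.10% to 17.5% and those of Gstp2 from 3.15% to 19.3%.

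The labels state no question for RVC against fresh frozen, and the design allows that comparison with 2 libraries a side. No conjugation gene passed the limma test at an adjusted p of 0.05: 0 of 38 tested, where 0.0363% of the 13771 genes tested did (5 genes). At an unadjusted p under 0.05 there were 8 of 38 (21.1%), 7 of them lower in RVC and 1 higher, against 18.4% of all genes, 8.99% lower and 9.38% higher. The groups did not overlap for 21 of 38 (55.3%), against 53.2% of all genes. Of these, 13 were lower in RVC (26.6% of all genes) and 8 higher (26.5% of all genes). With 1 library left out the 8 genes became 2 (without RVC 1), 8 (without RVC 2), 9 (without fresh frozen 1) and 10 (without fresh frozen 2), and the 5 calls over all genes became 30, 14, 23 and 25 in that order. Fold changes below are on the log2(scaled FPKM + 1) scale, RVC minus fresh frozen, on which the median of the 38 genes was −0.16 and that of all genes 0.0066.

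In the SULT class 3 of 6 tested genes had an unadjusted p under 0.05 (50%, against 18.4% of all genes). Sult1c2 had the smallest p of the 38, with scaled group means of 6.52 ± 0.711 FPKM (RVC) and 10.8 ± 1.86 FPKM (fresh frozen, each SD with n = 2), 1.66-fold higher in fresh frozen. Its limma log2 difference was −0.65 (SE 0.151, adjusted p = 0.134). Sult1a1 was at 60.4 ± 13.6 and 92.1 ± 0.142 FPKM, 1.53-fold higher in fresh frozen, with a limma log2 difference of −0.62 (SE 0.157, adjusted p = 0.145) that was −0.39 without RVC 1. Sult2b1 was at 33.0 ± 3.86 and 23.9 ± 3.03 FPKM, 1.38-fold higher in RVC, with a limma log2 difference of 0.45 (SE 0.136, adjusted p = 0.176). So the phenol sulfotransferase and the cholesterol sulfotransferase lay on opposite sides of 0, and the 2 most abundant SULT genes had overlapping groups (limma log2 difference −0.07 for Sult1b1 and −0.17 for Sult1d1). Sult1d1 was at −0.011 without RVC 1 and −0.34 without RVC 2, and Sult1b1 was at 0.058 without fresh frozen 1. Sult2b1 was the single gene of the 8 that was higher in RVC.

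In the UGT class 2 of 8 tested genes had an unadjusted p under 0.05 (25%, against 18.4% of all genes). Ugt2b35 had scaled group means of 3.07 ± 0.882 FPKM (RVC) and 5.14 ± 0.0358 FPKM (fresh frozen, each SD with n = 2), 1.67-fold higher in fresh frozen. Its limma log2 difference was −0.61 (SE 0.173, adjusted p = 0.162), and −0.39 without RVC 1. Ugt1a6a followed at −0.35 (SE 0.143, adjusted p = 0.259 in limma) and Ugt2b34 at −0.21 (adjusted p = 0.376 in limma), both without overlap of the groups. Ugt1a1 had the opposite sign, 0.26 (adjusted p = 0.296 in limma). Without fresh frozen 2 the difference of Ugt1a6a was −0.19, and that of Ugt2b34 was −0.32, against −0.10 without fresh frozen 1. Ugt1a6a and Ugt1a1 share exons, and the part of the division of reads in their differences was not tested.

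In the GST class the 3 genes with an unadjusted p under 0.05 were all lower in RVC, Gsta3 (limma log2 difference −0.40, adjusted p = 0.196), Gstm2 (−0.35, adjusted p = 0.203) and Gstm6 (−0.45, adjusted p = 0.219). Those 3 were 12.5% of the 24 tested, against 18.4% of all genes. Of the 24 tested, 18 had a difference below 0 and 6 above. Of all 13771 genes tested, 6748 were below 0 and 7023 above. The 6 above 0 were Mgst3 (0.27), Gstt2 (0.25), Gstp1 (0.22), Gstp2 (0.20), Gstt3 (0.19) and Gstt1 (0.14), with adjusted p of 0.302 for Mgst3 and 0.304 for Gstp1 in limma. All but Gstt1 of these 6 had groups without overlap, so 5 of the 24 tested were higher in RVC without overlap, against 26.5% of all genes. The 6 were picked by their sign, so this count is not a separate result. In the limma fit of transcripts, the leading transcript of Gstp2 was at 0.035 and that of Gstt2 at −0.17. A 429-nt transcript of Gstp2 was at 1.58 and a 739-nt transcript of Gstt2 at 0.94. The leading transcripts of Mgst3, Gstp1, Gstt3 and Gstt1 were above 0. Every mu-class gene was below 0, every pi-class gene but Gstp3 above. These signs are a description, as no gene among them passed the test. Of the GST genes described by library, Gsta1, Gstk1, Gstm1, Gstm5, Gsto1, Gstt1 and Mgst2 changed sign when a single library was left out. The difference of Gsta4 (−0.51, adjusted p = 0.310 in limma) was −0.094 without fresh frozen 1. Mgst3 was at 0.17 without fresh frozen 2. Gstp2 was at 0.072 without RVC 1 and 0.32 without RVC 2, and Gstt3 at 0.087 without fresh frozen 2 and 0.29 without fresh frozen 1. Gstm6 was at −0.28 without RVC 1.

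**Figure D5:**
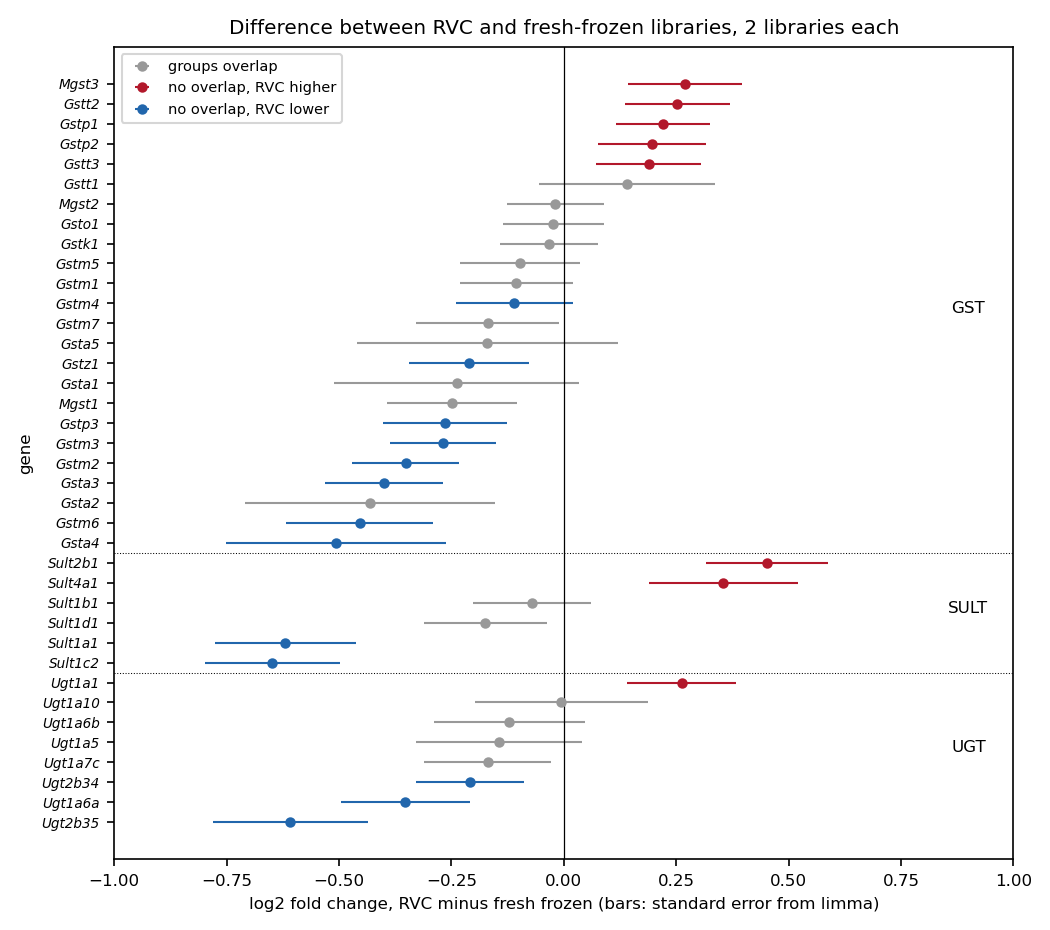
Log2 fold change (RVC minus fresh frozen) of the 38 tested conjugation genes by class, with bars for the standard error from limma and colours for whether the groups overlap. Sult2b1 (0.45) is farthest to the right and Sult1c2 (−0.65) farthest to the left, and none of the 38 passed an adjusted p of 0.05.

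The class sums lay closer together between the groups than the genes of smallest p. Those genes were picked by their p, so this says nothing about the classes. The log2 ratio of the group means (RVC over fresh frozen) was 0.042 for GST, −0.17 for SULT and −0.20 for UGT. The sums of GST and SULT overlapped between the groups, and for UGT both RVC libraries were below both fresh-frozen ones. A permutation of 2 libraries against 2 cannot give a two-sided p below 0.3333. The share of GST among the 3 classes was 66.5% and 65.3% in RVC and 62.4% and 62.3% in fresh frozen. The GST ratio depended on single libraries and on Mgst3: it was 0.13 without fresh frozen 1, −0.044 without fresh frozen 2 and −0.042 with the top gene of each class left out.

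Markers of some other cell types differed between the groups. Epithelial markers, of the cells known to hold most of these enzymes, summed to 8801, 8106, 8639 and 6817 FPKM. None of 10 had an unadjusted p under 0.05 in limma. All 10 had a log2 difference above 0, with a median of 0.11, against 0.0066 for all genes. Smooth-muscle markers summed to 1110, 1660, 680.4 and 731 FPKM, higher in RVC for 7 of 7 at an unadjusted p under 0.05, with a median log2 difference of 0.88. Endothelial markers (6 of 6), plasma-cell markers (3 of 4 tested) and macrophage markers (4 of 6) were higher in RVC by the same criterion, as were 9.38% of all genes. None of 6 fibroblast markers, 5 tested markers of enteric neurons and glia and 1 tested mast-cell marker met it, and of 7 goblet-cell markers 1 was lower in RVC and 0 higher. Hepatocyte markers, a check because liver is rich in these enzymes, summed to 9.20 to 19.8 FPKM, nearly all of it Ttr, with Fga at 0 and Alb at 0.389 or less. In bulk RNA, fewer cells of a type and less RNA per cell cannot be told apart. The part of other cell types in the differences of conjugation genes was not tested.

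The genes that supply the donors were taken from lists of the pathways, and none passed the limma test (0.0363% of all genes did). At an unadjusted p under 0.05, used for the counts below, 8.99% of all genes were lower in RVC and 9.38% higher. For glutathione, 9 of 11 supply genes were tested, with 1 lower in RVC and 0 higher at an unadjusted p under 0.05. Gss, which makes the final bond of glutathione, was at 41.4, 35.7, 44.6 and 34.2 FPKM and Gsr, which regenerates it from its oxidised form, at 26.7, 27.9, 25.0 and 25.9. The 1 gene was Gclm, the modifier subunit of the rate-limiting ligase, at 21.8, 21.4, 28.9 and 25.0 FPKM (limma log2 difference −0.30, adjusted p = 0.237), with both RVC libraries lower.

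For sulfate, 7 of 12 genes were tested, with 1 lower in RVC and 0 higher at an unadjusted p under 0.05. The sulfate transporter Slc26a2 was at 446, 415, 432 and 434 FPKM, above every conjugation gene in each library. Papss2, which makes the sulfate donor PAPS, was at 75.2, 71.2, 68.8 and 74.4 FPKM. Bpnt2, a phosphatase that removes the spent donor's product in the Golgi, was at 18.5, 18.0, 26.7 and 27.9 FPKM, without overlap of the groups (limma log2 difference −0.55, adjusted p = 0.129).

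For glucuronic acid, 5 of 5 genes were tested, with 1 lower in RVC and 0 higher at an unadjusted p under 0.05. Ugdh, which oxidises UDP-glucose to the donor, was at 172, 151, 155 and 157 FPKM. Ugp2, which makes UDP-glucose, was at 54.5, 54.3, 72.1 and 63.7 FPKM, lower in both RVC libraries (limma log2 difference −0.31, adjusted p = 0.210). Among 6 exporters of conjugates Abcg2 (52.5, 53.9, 46.5 and 47.1 FPKM) and Abcc3 (42.2, 32.8, 34.0 and 34.9 FPKM) were the most abundant, and 0 of 6 had an unadjusted p under 0.05. Of 5 tested genes that break down glutathione conjugates, 1 was higher in RVC at that level and 0 lower. Acy1, which removes the acetyl group of mercapturates, was at 18.8, 21.8, 21.7 and 13.1 FPKM, and Ggt6 was at 13.81, 13.84, 12.61 and 14.01. The 1 gene was Ggt1, which cleaves the glutamate from glutathione conjugates, at 4.77, 8.95, 2.82 and 4.83 FPKM, with overlapping groups (limma log2 difference 0.69, adjusted p = 0.272).

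Of 16 regulators listed, 15 were tested. At an unadjusted p under 0.05, 2 were higher in RVC (9.38% of all genes were) and 0 lower (8.99%). Hnf4a, a nuclear receptor of gut and liver epithelium, was at 189, 179, 175 and 150.4 FPKM. Nfe2l2, which encodes NRF2, was at 39.1, 37.6, 44.2 and 47.3 FPKM. The 2 genes were the nuclear receptor Nr1i3 (CAR), at 1.97, 1.98, 0.916 and 1.39 FPKM, and its partner Rxra, at 19.4, 16.4, 14.2 and 13.7 FPKM. Of 8 tested targets of NRF2 and the aryl hydrocarbon receptor outside the conjugation genes, 0 had an unadjusted p under 0.05, and Cyp1a1 had a mean under 1 FPKM. The most abundant were Pgd, an NADPH-forming dehydrogenase, at 65.90, 61.59, 67.05 and 60.95 FPKM, and Txnrd1, thioredoxin reductase, at 53.4, 44.5, 46.5 and 48.2.

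Of 13 related enzymes outside the name rule 11 were tested. At an unadjusted p under 0.05, 2 were higher in RVC (9.38% of all genes were) and 0 lower (8.99%). The most abundant was the arylamine acetyltransferase Nat2, at 24.4, 23.9, 25.2 and 27.0 FPKM. The 2 genes were Ephx1, an epoxide hydrolase, at 11.4, 11.6, 9.37 and 7.19 FPKM (limma log2 difference 0.44, adjusted p = 0.187), and Ltc4s, leukotriene C4 synthase, at 2.37, 1.56, 1.32 and 0.875 FPKM (0.50, adjusted p = 0.251). Both RVC libraries were above both fresh-frozen ones for the pair.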

How the data were processed

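Ribosomal RNA was removed, and KAPA HyperPrep libraries were sequenced in pairs of 150-bp reads, per the labels' protocols. Per the submitters' processing notes, the authors used TopHat2 2.1.1, Cufflinks 2.2.1 and GRCm39. The annotation release and strand setting were not given in the sources used here. The deposited values are FPKM per transcript with lower and upper bounds, and coverage (a signal of reads per base), per the file headers. Count models were not used on them. Cufflinks divides reads between overlapping or similar transcripts by likelihood. Relative depth was read from the ratio of coverage to FPKM.

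Gene FPKM was the sum over transcripts. Levels are deposited FPKM. For the comparison, libraries were scaled by median ratio, and log2(scaled FPKM + 1) of 13771 genes and 24174 transcripts was fitted with limma 3.58.1 in R 4.3.3 (trend, two-sided, 2 libraries a group, no covariate), adjusted by Benjamini-Hochberg over all of them. Tested features had a mean of at least 1, a longest transcript of at least 300 nt and status OK. The fit was tested on simulated data with changes larger than that of any tested conjugation gene. Its power for changes of their size was not tested. Of the 67 genes 29 were not tested. Starts in the files were shifted to count from 1. Sequences and exons came from GRCm39 with GENCODE vM39, which held all 215 transcripts of these genes by name, at overlapping positions. Some of them differ in length from those in the files. The leading transcript of Sult1b1 has 1213 nt in the files and 2570 nt in vM39, and that of Gsta4 977 and 2109 nt. The shared windows therefore describe the vM39 transcripts. Tables were handled in pandas 2.3.3 and plotted in matplotlib 3.10.9.

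Genes given with every library had a mean of at least 10 FPKM or were among the 3 of smallest p in their class (28 genes). In pathway lists, the 2 most abundant genes and up to 2 with an unadjusted p under 0.05 in each direction were named, apart from 1 gene that is not reported here. Nr1i3, Rxra, Gclm, Bpnt2, Ugp2, Ggt1, Ephx1 and Ltc4s came in by p. Genes named to say that they were low or absent, and Gm3776, were chosen after their values were seen. The members and lists were chosen with earlier results of these data known. Alternatives covered the pseudocount, scaling, filters, length, status, a block on sample number, the trend, the gene sum and each library left out.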

Additional observations from a re-analysis of the deposited data

How the results depend on the processing

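No conjugation gene was called under any of the 15 alternatives to the gene test, and 2 (without RVC 1) to 10 of them had an unadjusted p under 0.05. Over all genes, the 5 calls became 0 without a filter on low values (3531 at an unadjusted p under 0.05), 2 with a mean of at least 5 FPKM, 0 once transcripts under 300 nt were dropped from the sums (2577) and 0 without the trend (2461), and 14 to 30 with 1 library left out. The cause was not tested. With sample number as a replicate block, 112 genes and 1 transcript were called, 0 of them conjugation genes. Whether the numbers pair the libraries cannot be told from 2 pairs (deviations of same-numbered libraries correlated at −0.13 over genes). Crossed numbers, added after seeing the data, gave 12. The 1 transcript called became 6 at a mean of at least 5 FPKM and 0 to 0 with 1 library left out.

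Of 419 alternative values for the 28 genes described by library, 408 kept their sign, and the lowest adjusted p among them was 0.0834, for Gsta4. The 11 that changed sign all left out 1 library and belong to 8 genes. With each library left out in turn, the log2 difference ran from −0.087 (without fresh frozen 2) to 0.041 (without fresh frozen 1) in Gsto1, with 0.0010 without RVC 1. It ran from −0.086 to 0.049 in Mgst2, −0.23 to 0.035 in Gstm5, −0.62 to 0.14 in Gsta1 and −0.20 to 0.058 in Sult1b1, in each case lowest without fresh frozen 2 and highest without fresh frozen 1. In Gsta1 it was also above 0 without RVC 2 (0.052). It ran from −0.22 (without RVC 2) to 0.0079 (without RVC 1) in Gstm1, from −0.11 (without fresh frozen 2) to 0.39 (without fresh frozen 1) in Gstt1, which was also below 0 without RVC 2 (−0.049), and from −0.084 (without fresh frozen 1) to 0.018 (without fresh frozen 2) in Gstk1. Where RVC 1 was left out, the adjusted p of Sult1a1, Sult1c2, Ugt2b35 and Sult2b1 was highest of their ranges, which were 0.101 to 0.522, 0.103 to 0.475, 0.128 to 0.579 and 0.138 to 0.622.

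The class shares moved with the most abundant gene of each class left out (GST 73.9%, SULT 19.3%, UGT 6.85%) and with FPKM times length (GST 47.3%, SULT 24.2%, UGT 28.5%). With the leading transcript only, UGT held 14.3%. With 1 library left out the shares were 63.3% to 64.8%, 22.2% to 23.3% and 13.1% to 13.8%. The log2 ratio of the GST sum then ran from −0.044 to 0.13, that of SULT from −0.28 to −0.068 and that of UGT from −0.28 to −0.11. With the Gsta genes of chromosome 9 left out, an alternative added after seeing the data, the GST ratio was 0.057. Depth as fragments is unknown from these files, so no counting interval is given.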
